A study of Mus musculus with 12 samples.

Results

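Microtubules are hollow filaments built from dimers of 1 α-tubulin and 1 β-tubulin, and mammals encode each of these proteins in several genes whose products are called isotypes. Isotypes are near-identical through most of the protein and differ mainly in a short acidic tail at the carboxyl end, which faces outward from the filament and carries tyrosine removal, glutamylation and other modifications. In heart muscle cells a stable, tyrosine-poor network of microtubules runs along the contractile lattice and is known to affect its stiffness, while dividing cells, fibroblasts and immune cells use dynamic microtubules for spindles, migration and secretion. The 10 tubulin genes described here, of 16218 genes in the deposited table, were chosen by symbol: 5 α genes (Tuba1a, Tuba1b, Tuba1c, Tuba4a and Tuba8) and 5 β genes (Tubb2a, Tubb2b, Tubb4b, Tubb5 and Tubb6). All 10 were in the table and all 10 passed the filter on low values, which asked for an average of 5 or more normalized counts across libraries.

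The hearts came from 12 female wild-type mice aged 12 weeks, in 3 groups of 4 animals with 1 library each. The first group was sham operated. The other groups had the left anterior descending coronary artery tied off for good, an operation that causes a myocardial infarction (MI), and received either phosphate-buffered saline (MI+PBS) or agrin (MI+Agrin), an extracellular matrix proteoglycan. RNA was taken 2 weeks after MI; the dose and route of agrin and the region of the heart sampled were not given in the sources used here. Heart RNA mixes all cell types, so fewer cells of a type and less RNA per cell cannot be told apart in any value below.

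The 12 libraries held 20238512 to 22742027 recovered reads, and 15799 to 15898 genes had a read in each. MI+PBS replicate 2 had the lowest summed normalized counts of 8 cardiomyocyte markers among the 12 libraries, 1001405, and the highest sum of 8 dividing-cell markers, 6999, while its sum of 9 macrophage markers, 20803, lay within the range of its group, 19046 to 22491. The numbers that name replicates come from the sample titles, and replicates of a group have no order.

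The tails of the isotypes begin with the genes, and the last coding bases show whether an α gene encodes a carboxyl-terminal tyrosine, the residue that tubulin carboxypeptidases remove and tubulin tyrosine ligase restores. The 45 bases that close the coding sequence are given for 3 of the α genes, 5′ to 3′ on the coding strand from GENCODE M21 transcripts of mm10, with the last amino-acid codon in capitals and the stop codon after it. Tuba1c (chr15:99037965-99038009, plus strand), Tuba4a (chr1:75215622-75215666, minus strand) and Tuba8 (chr6:121226035-121226079, plus strand) end as follows.
Tuba1c: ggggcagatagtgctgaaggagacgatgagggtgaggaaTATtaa
Tuba4a: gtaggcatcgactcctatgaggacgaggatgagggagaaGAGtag
Tuba8: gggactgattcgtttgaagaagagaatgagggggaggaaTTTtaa
TAT is a tyrosine codon, GAG is a glutamate codon and TTT a phenylalanine codon. Thus Tuba1c messages encode a tail that ends in tyrosine, as those of Tuba1a and Tuba1b are known to do, Tuba4a messages encode a tail that ends in glutamate from the start, and Tuba8 messages encode a tail that ends in phenylalanine.

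The β genes are shown in the same way, so that near-identical and more distant tails can be compared. Tubb2a (chr13:34074468-34074512, minus strand), Tubb2b (chr13:34127471-34127515, minus strand), Tubb4b (chr2:25222308-25222352, minus strand) and Tubb5 (chr17:35834982-35835026, minus strand) all close with an alanine codon.
Tubb2a: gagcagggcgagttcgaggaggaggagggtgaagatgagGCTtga
Tubb2b: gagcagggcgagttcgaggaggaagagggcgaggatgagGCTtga
Tubb4b: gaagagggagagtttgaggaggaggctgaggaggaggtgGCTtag
Tubb5: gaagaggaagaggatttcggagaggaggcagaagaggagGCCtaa
The ends of Tubb2a and Tubb2b differ at 3 bases and encode the same residues, whereas those of Tubb4b and Tubb5 differ from each other at 16 bases and 7 residues.

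The opening codons matter for tubulin as well. When free dimers are abundant, the factor TTC5 recognises the first residues of a nascent tubulin chain on the ribosome and, through SCAPER and the CCR4-NOT deadenylase, the message is degraded; this is tubulin autoregulation. The first 15 coding bases are given for 4 genes, with the codons after the start codon that encode the recognised residues in capitals.
Tuba1c: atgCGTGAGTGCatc
Tuba4a: atgCGCGAGTGCatt
Tuba8: atgAGGGAATGCata
Tubb5: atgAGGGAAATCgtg
The capitals of Tuba4a and Tuba8 differ from those of Tuba1c in codon choice.

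Near-identity limits what reads of 61 bases can tell apart. Over the coding sequence Tuba1a and Tuba1b were 98.3% identical, with 23 differing bases in 1356, Tuba1a and Tuba1c were 97.1% identical, and Tubb2a and Tubb2b were 96.5% identical, with 47 differing bases in 1338. Of the 61-base words in the coding transcript, 73.5% in Tuba1a, 81.0% in Tuba1b and 58.9% in Tuba1c also occur in another annotated gene, and 46.5% in Tubb2a and 35.9% in Tubb2b. Tubb5 and Tubb6 had 0 shared words. Counts of Tuba1a, Tuba1b and Tuba1c, and of Tubb2a and Tubb2b, are therefore uncertain as single genes, because the handling of reads that match several genes was not given in the sources used here.

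Other members share words with neighbours or pseudogenes rather than with each other. In Tubb4b, 48.7% of words also occur elsewhere, most of them in the pseudogene Tubb4b-ps1. In Tuba4a, 47.8% of words occur in another gene, nearly all in Stk16, a kinase gene on the other strand that covers 37.3% of the exonic bases of Tuba4a. Stk16 itself held a mean of 685 normalized counts in sham, 759.8 in MI+PBS and 732 in MI+Agrin, far below Tuba4a. These counts do not measure how many reads of the shared stretch were given to either gene or to neither. Tuba8 shares 14.1% of its words with the antisense locus Gm15856. The strand setting of the counting was not given in the sources used here, so reads from such overlapping genes cannot be assigned with certainty.

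In sham hearts the α genes Tuba4a and Tuba8 had the highest levels of the 10 per kilobase of merged exons (the union of all annotated exons of a gene). Tuba4a was at 4781 ± 807 (SD, n = 4) normalized counts per kilobase, with its lowest library at 4180.01, above every library of every other member. Tuba8 followed at 2386 ± 218 and Tubb4b, a widely used β isotype, at 1886 ± 283; their ranges overlapped, 2135 to 2656 against 1685 to 2289. Tubb5, a β isotype abundant in proliferating cells, was at 1334 ± 109.5, below every Tubb4b library.

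The remaining members formed a lower tier in sham. Tuba1a was at 609.9 ± 58.1 normalized counts per kilobase, Tubb2a at 471 ± 52.6, Tubb6 at 463 ± 27.5 and Tuba1b at 357 ± 61.5. The ranges of Tubb2a and Tubb6 overlapped, as did those of Tubb2a and Tuba1b, and Tuba1a lay above all of them. Tuba1c at 139 ± 26.7 and Tubb2b at 50.4 ± 12.7 were lowest, and their libraries did not overlap with any other member.

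After infarction the top of the order closed up. In MI+PBS, Tuba4a was at 3034 ± 862, Tubb5 at 2612 ± 684, Tubb4b at 2143 ± 365 and Tuba8 at 1928 ± 549.7 normalized counts per kilobase, and each overlapped with its neighbour. In MI+Agrin, Tuba4a at 3503 ± 487 again lay above all libraries of the other members, while Tuba8 at 2022 ± 116, Tubb5 at 1995 ± 167 and Tubb4b at 1932 ± 97.4 overlapped. Levels were also taken per kilobase of the words of the coding transcript that occur in no other gene. This scale is meant for the case that reads in shared stretches were not counted. It leaves out exons outside that transcript, so it is only rough. On it Tuba4a led in all 3 groups, at 12187 in sham, 7734 in MI+PBS and 8928 in MI+Agrin. Tubb4b came second (4991, 5671 and 5114). On that scale Tuba1a was at 2380.2 in sham and 4652 in MI+PBS.

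**Figure D1:**
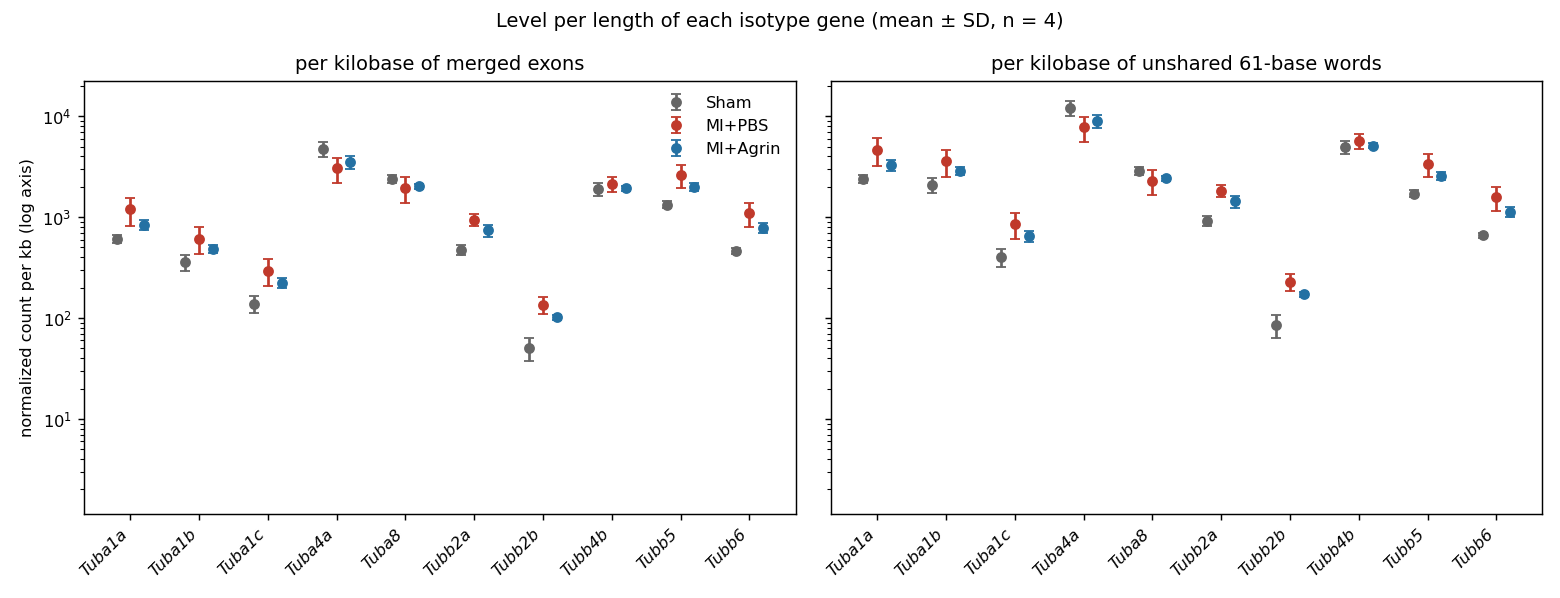
Level of each isotype gene per length in the 3 groups, in normalized counts per kilobase on a log axis; points are means and bars SDs over 4 libraries. The left panel divides by merged exons and the right panel by 61-base words found in no other gene; Tuba4a is the highest point of each group in both panels and Tubb2b the lowest.

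Infarction was followed by higher counts of most isotype genes and lower counts of Tuba4a. Against sham, 7 of the 10 genes rose in MI+PBS (Tuba1a, Tuba1b, Tuba1c, Tubb2a, Tubb2b, Tubb5 and Tubb6), Tuba4a fell, and Tuba8 and Tubb4b did not pass the test, which was limma with Benjamini-Hochberg adjustment over 14906 genes at an adjusted p of 0.05. Of all genes tested, 44.4% passed in this comparison, 22.6% higher and 21.8% lower, so that passing is common here. The median log2 fold change of the 10 genes was 0.93, beside -0.01 over all genes tested. For the 7 that rose, the libraries of the groups did not overlap, which was the case for 21.6% of all genes in that direction.

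**Figure D2:**
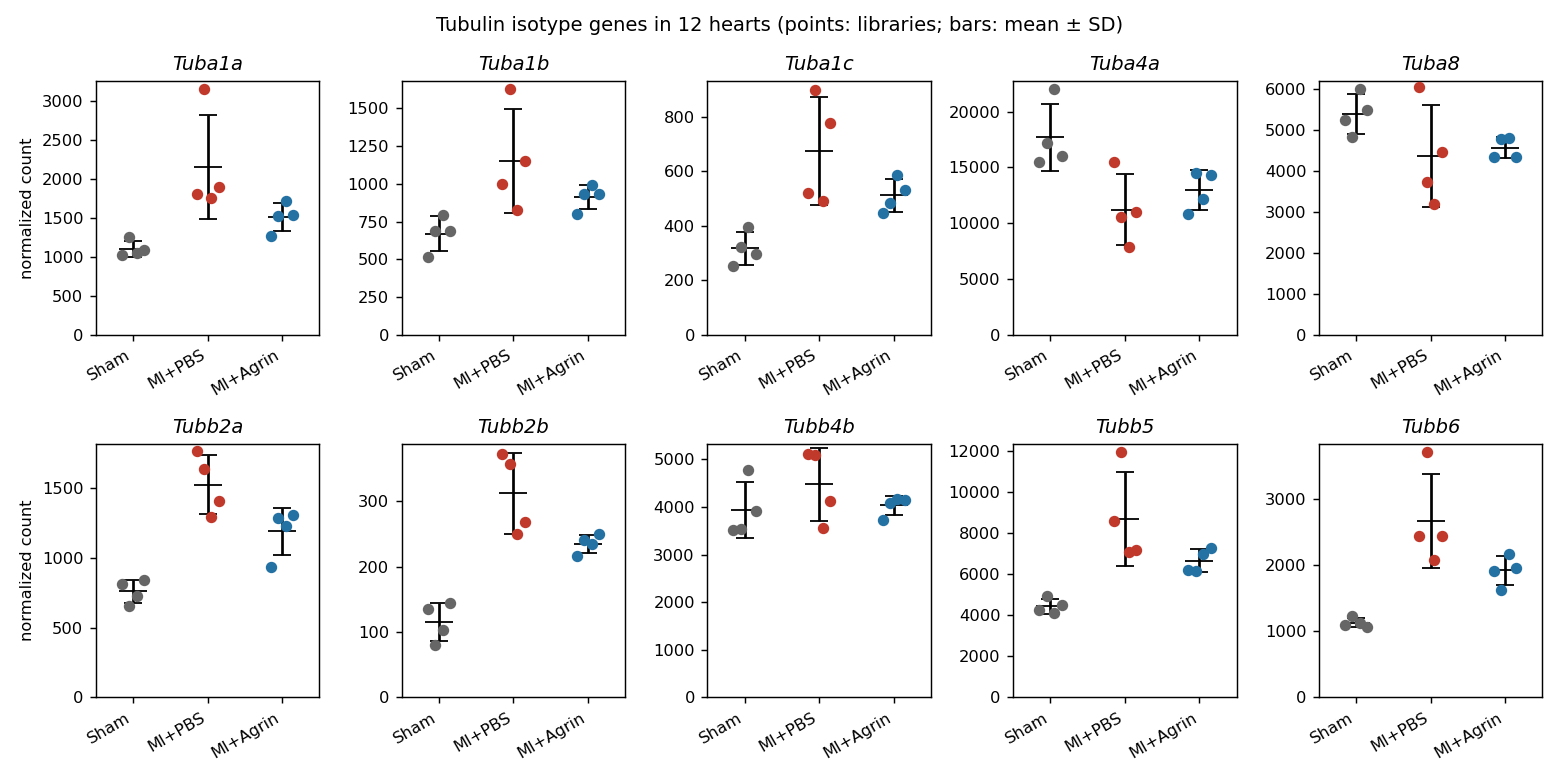
Normalized counts of the 10 tubulin isotype genes in each of the 12 libraries, with group mean and SD (n = 4). For 7 genes all MI+PBS libraries lie above all sham libraries; for Tuba4a and Tuba8 one MI+PBS library, replicate 1, lies within or above the sham range.

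Of the α genes that encode a terminal tyrosine, Tuba1a, the α isotype best known from growing neurons, held 1019.9, 1252, 1045 and 1082 normalized counts in the sham libraries. In MI+PBS it held 1804, 3146, 1749.8 and 1897, and in MI+Agrin 1272, 1519, 1713 and 1541. The 3 groups did not overlap, with sham lowest and MI+PBS highest, and MI+PBS replicate 2 lay far above the other libraries. Tuba1a rose by 0.93 ± 0.16 (SE) log2 in MI+PBS against sham, a fold of 1.90 (adjusted p = 0.000621, limma), and by 0.73 without MI+PBS replicate 2.

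Tuba1b, the α isotype found in nearly all cell types, held 512, 688, 790.4 and 688 normalized counts in sham, 998, 1626, 827 and 1153 in MI+PBS, and 801, 932, 989 and 936 in MI+Agrin. Every library of the infarcted groups lay above every sham library, and the infarcted groups overlapped. The rise in MI+PBS was 0.75 ± 0.18 log2 (adjusted p = 0.00432, limma). Tuba1c, a minor and broadly expressed α isotype, held 252, 323, 397 and 296 in sham, 522, 899, 492 and 779 in MI+PBS, and 446, 485, 586 and 530.5 in MI+Agrin. It too separated sham from the infarcted groups, and it rose by 1.06 ± 0.19 log2 (adjusted p = 0.000755, limma). Of the 61-base words, 48.8% in Tuba1a, 61.8% in Tuba1b and 58.4% in Tuba1c also occur in another of the 10 genes, so the 3 rises may not be independent of each other.

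Tuba4a moved the other way. It held 15470.2, 17209, 22043 and 16059.9 normalized counts in sham, 15536, 10552, 7846 and 10985 in MI+PBS, and 10817, 14543, 12132 and 14358 in MI+Agrin. MI+PBS replicate 1 lay within the sham range while the other 3 MI+PBS libraries and all MI+Agrin libraries lay below it. Tuba4a fell by 0.68 ± 0.18 log2 in MI+PBS (adjusted p = 0.00782, limma), and the call held in all 19 alternative settings.

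Tuba8, an α isotype known for its expression in striated muscle and testis, held 5251, 4831, 6011 and 5505 normalized counts in sham, 6056, 3726, 3198 and 4469 in MI+PBS, and 4347, 4782, 4822 and 4351 in MI+Agrin. In MI+PBS, replicate 1 was the highest of the 12 libraries and the other 3 lay below every sham library. Its log2 fold change was -0.35 ± 0.15 with a 95% interval from -0.67 to -0.02 (adjusted p = 0.0797, limma), and without MI+PBS replicate 1 it was -0.52 (adjusted p = 0.00225). The call for Tuba8 therefore turns on that library.

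Cardiomyocyte markers were lower in the infarcted hearts as well. Of 8 markers, 4 fell in MI+PBS (Tnnt2, Tnni3, Myl2 and Pln) and none rose, with a median log2 fold change of -0.43, and their summed counts ran from 1582033 to 1836115 in sham, from 1001405 to 1447952 in MI+PBS and from 1378283 to 1555544 in MI+Agrin. Within MI+PBS the lowest marker sum was in replicate 2, and the lowest Tuba4a and Tuba8 counts were in replicate 3. Only the lowest library of each is named here, so no conclusion is drawn from their places. The part of these markers in the lower Tuba4a counts was not tested.

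Among the β genes, Tubb2b, an isotype prominent in developing neurons, had the largest change of the 10. It held 135, 80.9, 102.5 and 144 normalized counts in sham, 372, 356, 250.1 and 268 in MI+PBS, and 217, 239.9, 234 and 249 in MI+Agrin. The 3 groups did not overlap, with sham lowest and MI+PBS highest. Tubb2b rose by 1.44 ± 0.18 log2 in MI+PBS, a fold of 2.71 (adjusted p = 7.94e-05, limma). Its neighbour on chromosome 13, Tubb2a, held 811, 654, 728 and 841 in sham, 1758, 1633, 1293 and 1402 in MI+PBS, and 935, 1280.2, 1225 and 1305 in MI+Agrin. It separated sham from both infarcted groups and rose by 0.9998 ± 0.12 log2 in MI+PBS (adjusted p = 7.89e-05, limma).

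Tubb6, a broadly expressed β isotype with 0 words shared with other genes, held 1098, 1223, 1121 and 1069.8 normalized counts in sham, 2444, 3699, 2069 and 2431 in MI+PBS, and 1913, 1629.6, 2169 and 1955 in MI+Agrin. Its sham libraries were tightly grouped and far below all others. It rose by 1.204 ± 0.14 log2 in MI+PBS, a fold of 2.30 (adjusted p = 6.5e-05, limma), and by 1.03 without MI+PBS replicate 2.

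Tubb5, likewise free of shared words, held 4235, 4930.4, 4102 and 4480.2 normalized counts in sham, 8581, 11940.4, 7070.4 and 7165 in MI+PBS, and 6192, 6143, 6976 and 7243 in MI+Agrin. All infarcted libraries lay above all sham libraries, and MI+PBS replicate 2 was highest. The rise in MI+PBS was 0.94 ± 0.14 log2, a fold of 1.92 (adjusted p = 0.000221, limma). No other annotated gene holds a 61-base word of the coding transcript of Tubb5 or Tubb6. A read without errors from another isotype therefore does not match those transcripts. Exons outside the coding transcripts were not searched.

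Tubb4b stood apart from the other β genes. It held 3519, 3529, 4779 and 3925 normalized counts in sham, 5118, 5091, 3568 and 4122 in MI+PBS, and 3735, 4088, 4173 and 4144 in MI+Agrin. All 3 groups overlapped. Its log2 fold change in MI+PBS was 0.18 ± 0.12 with a 95% interval from -0.08 to 0.44 (adjusted p = 0.246, limma), so that a rise as large as that of Tubb5 lay outside the interval while a small one did not.

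Markers of several cell types were higher in the same hearts as the 7 genes that rose. All 8 dividing-cell markers rose in MI+PBS, with sums from 826 to 1798 in sham, 4025 to 6999 in MI+PBS and 2544 to 4041 in MI+Agrin. All 8 myofibroblast markers rose, with sums from 59242 to 99234 in sham, 211628 to 235613 in MI+PBS and 137858 to 210850.4 in MI+Agrin. All 9 macrophage and all 6 neutrophil markers rose, with macrophage sums from 8900.4 to 11671 in sham, 19046 to 22491 in MI+PBS and 15457 to 20351 in MI+Agrin. Their part in the tubulin changes was not tested.

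Neural and platelet markers had low counts. Of 8 neuron markers, Rbfox3, Th and Elavl4 lay under a mean of 5 normalized counts, and of the 5 tested Uchl1 rose and Dbh fell in limma. With the replicate number as a block none passed, and leaving out 1 library took the number that rose to 0 for Sham replicates 2, 4 and 5 and MI+PBS replicates 2, 3 and 5, and the number that fell to 0 for Sham replicates 3 and 4 and MI+PBS replicates 2, 3 and 5. The number that fell was also 0 with no filter on low values, with limma fitted without its mean-variance trend and with the 8 libraries alone. The summed neuron markers ranged from 226 to 604 in sham and from 279 to 380.2 in MI+PBS. Of 5 Schwann cell markers none passed with limma, edgeR or DESeq2, and 0 had an unadjusted p under 0.05 in limma; with the replicate number as a block 1 fell. Of 6 platelet markers, Pf4 rose, with 3 rising without Sham replicate 3 and 2 without MI+PBS replicate 3, and their sum ran from 344 to 607 in sham and from 894 to 1263 in MI+PBS. Of 7 endothelial markers 2 fell (Kdr and Tek), of 7 resting fibroblast markers 2 fell (Tcf21 and Gsn), and 1 fell without any one of Sham replicates 4 and 5 and MI+PBS replicates 1, 3 and 5, and of 7 smooth muscle and pericyte markers 3 rose and 2 fell. Of 6 lymphocyte markers none passed with limma, edgeR or DESeq2, and 0 had an unadjusted p under 0.05 in limma. The skeletal muscle myosin genes Myh1, Myh2 and Myh4 lay under a mean of 5.

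**Figure D3:**
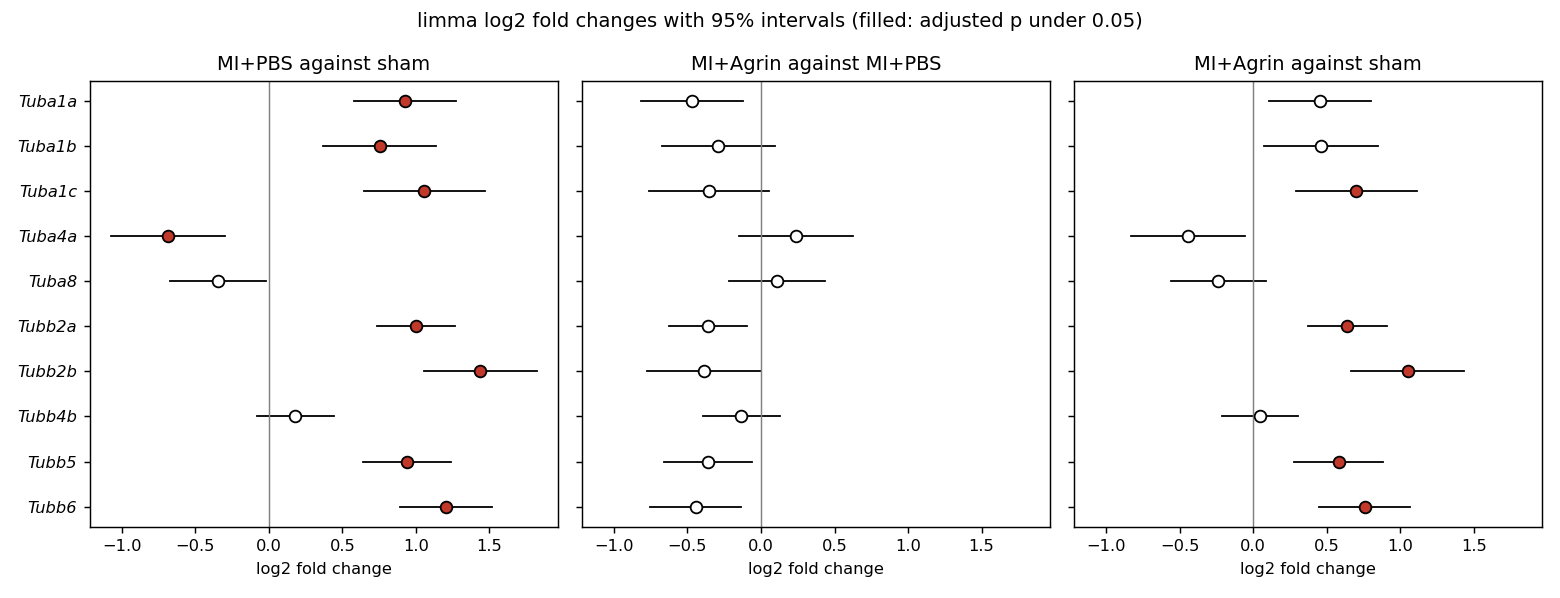
Log2 fold changes from limma with 95% intervals for the 10 genes in the 3 comparisons; filled points passed an adjusted p of 0.05. In the first panel 7 points are filled above 0 and Tuba4a below; in the second no point is filled; in the third 5 are filled, all above 0.

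Within the α genes and within the β genes the isotypes moved unequally, so the mix of isotype counts differed between groups. Shares were taken within a library, as the percentage of the summed counts of the 5 α or the 5 β genes, so they do not depend on library scaling, and as parts of 1 whole they are not independent of each other. Each was compared by a two-sided exact permutation test over the 70 ways to split 8 libraries, whose smallest possible p is 0.0286, with 10 shares per comparison and no adjustment. Shares use counts as deposited, in which long messages weigh more, and are compared only for 1 gene between groups.

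Tuba4a made up 68.7%, 70.8%, 72.8% and 68.0% of α counts in the sham libraries. In MI+PBS its share was 62.4%, 52.9%, 55.6% and 57.0%, and in MI+Agrin 61.2%, 65.3%, 59.9% and 66.1%. Every infarcted heart lay below every sham heart, replicate 1 of MI+PBS included, although its Tuba4a count lay within the sham range. The mean fell by 13.1 percentage points in MI+PBS (exact permutation test, p = 0.0286).

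The share of Tuba1a was 4.53%, 5.15%, 3.45% and 4.58% in sham, 7.24%, 15.8%, 12.4% and 9.84% in MI+PBS, and 7.19%, 6.82%, 8.46% and 7.09% in MI+Agrin. It rose by 6.88 points in MI+PBS (exact permutation test, p = 0.0286), with no overlap. Tuba1b rose from a mean of 2.66% to 5.999% and Tuba1c from 1.252% to 3.53% of α counts, each with p = 0.0286 in the exact permutation test. The share of Tuba8 was 21.6% ± 1.99 in sham, 22.2% ± 2.45 in MI+PBS and 22.5% ± 2.10 in MI+Agrin (SD, n = 4), with all groups overlapping (exact permutation test of MI+PBS against sham, p = 0.886).

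Summed over Tuba1a, Tuba1b and Tuba1c, the α genes whose tail ends in tyrosine, the share of α counts was 7.93%, 9.31%, 7.37% and 8.74% in sham. It was 13.3%, 28.4%, 21.7% and 19.9% in MI+PBS and 14.2%, 13.2%, 16.2% and 13.8% in MI+Agrin. All infarcted hearts lay above all sham hearts, and MI+PBS replicate 1 lay within the MI+Agrin range. Reads assigned to another of these 3 genes leave their summed counts unchanged. Reads that were not counted because they match several genes, or that match genes outside the 3, can change the sum. The part of such reads was not tested. Per kilobase of merged exons the mean share of the 3 genes was 13.4% in sham, 30.2% in MI+PBS and 21.9% in MI+Agrin. Per kilobase of words found in no other gene it was 24.6% in sham, 47.6% in MI+PBS and 37.4% in MI+Agrin. The size of the share therefore depends on the scale, while sham had the lowest and MI+PBS the highest mean on each. No test was made of this sum, and the data hold messages only: tubulin protein and its tyrosination were not measured.

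Among the β genes, the share of Tubb4b was 35.9%, 33.9%, 44.1% and 37.5% in sham, 28.01%, 22.4%, 25.04% and 26.8% in MI+PBS, and 28.7%, 30.6%, 28.2% and 27.8% in MI+Agrin. Sham did not overlap with either infarcted group, and the mean fell by 12.3 points in MI+PBS (exact permutation test, p = 0.0286) while the Tubb4b count itself did not pass its test. As a percentage of the summed counts of all 10 genes, the share of Tubb4b was instead 1.01 points higher in MI+PBS than in sham.

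The share of Tubb6 rose from a mean of 10.9% to 14.99% and that of Tubb2b from 1.12% to 1.78% of β counts in MI+PBS (exact permutation test, p = 0.0286 for each). Tubb5 went from 42.8% ± 3.87 to 48.9% ± 2.77 (exact permutation test, p = 0.0857) and Tubb2a from 7.33% ± 0.98 to 8.75% ± 1.07 (exact permutation test, p = 0.143), with overlapping groups. In all, 7 of 10 shares did not overlap between MI+PBS and sham, 5 higher and 2 lower.

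**Figure D4:**
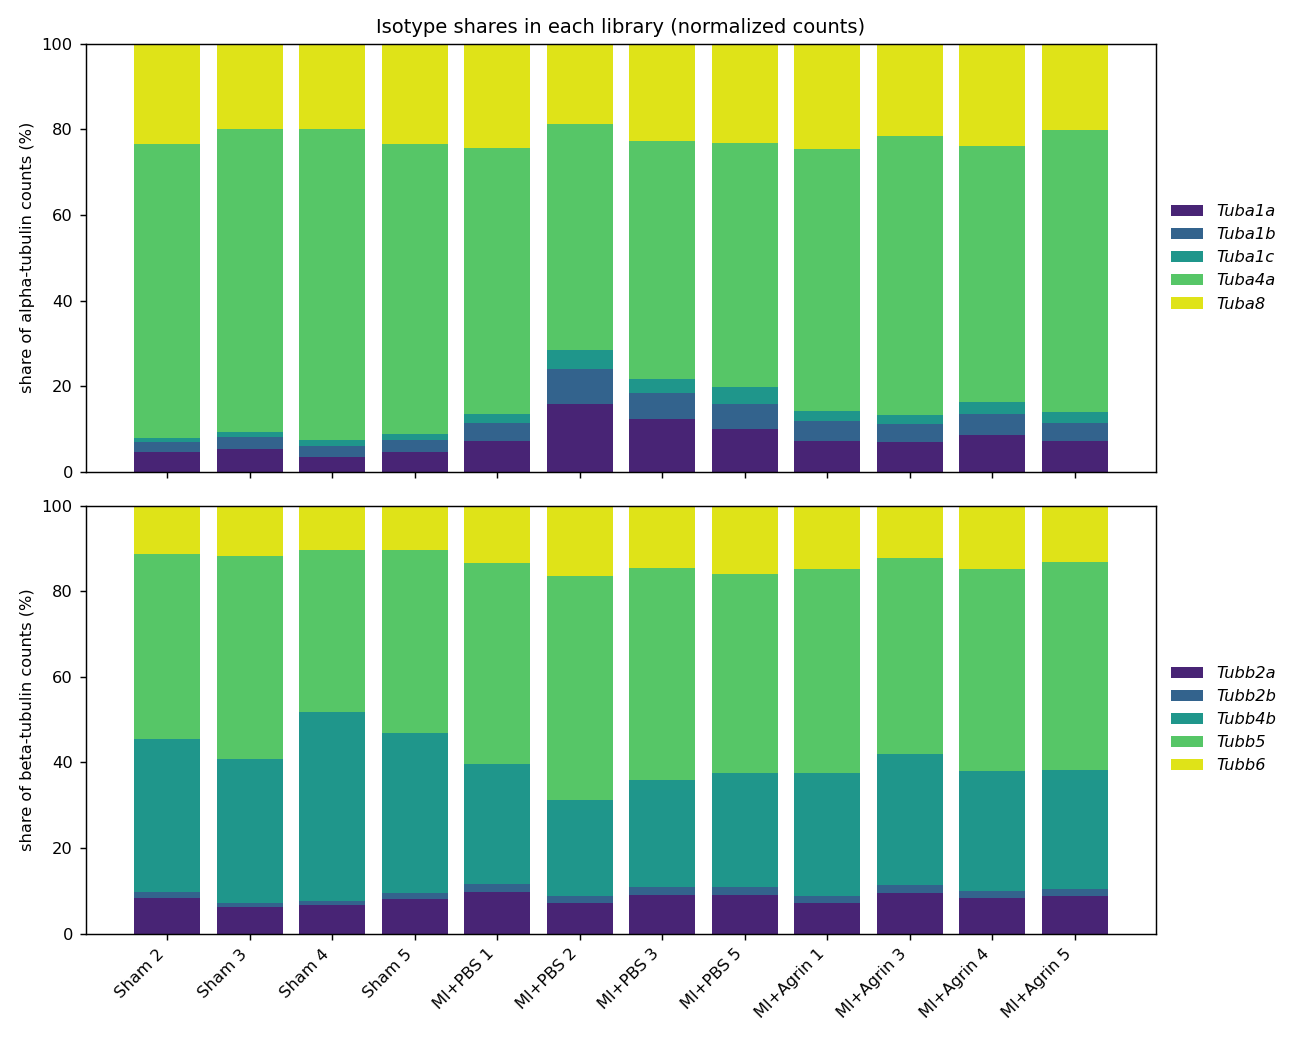
Share of each isotype in the α (top) and β (bottom) tubulin counts of each library, in percent of normalized counts. The Tuba4a band spans 68.0% to 72.8% in sham and 52.9% to 66.1% in the infarcted hearts, and the Tubb4b band narrows from 33.9% or more in sham to 30.6% or less.

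The summed counts of the families diverged too. The 5 β genes together held 10377 ± 429 normalized counts in sham, 17658 ± 3776 in MI+PBS and 14012 ± 967 in MI+Agrin (SD, n = 4), with no overlap between sham and either other group. The 5 α genes held 25181 ± 3484, 19565 ± 4419.6 and 20475 ± 2048, with MI+PBS replicate 1 inside the sham range. The ratio of β to α counts was 0.42 (0.36 to 0.44) in sham, 0.92 (0.73 to 1.14) in MI+PBS and 0.69 (0.60 to 0.73) in MI+Agrin, and per kilobase of merged exons 0.51, 0.99 and 0.79. Together the 10 genes made up 0.161% of all counts in sham, 0.179% in MI+PBS and 0.161% in MI+Agrin. These sums were not tested.

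**Figure D5:**
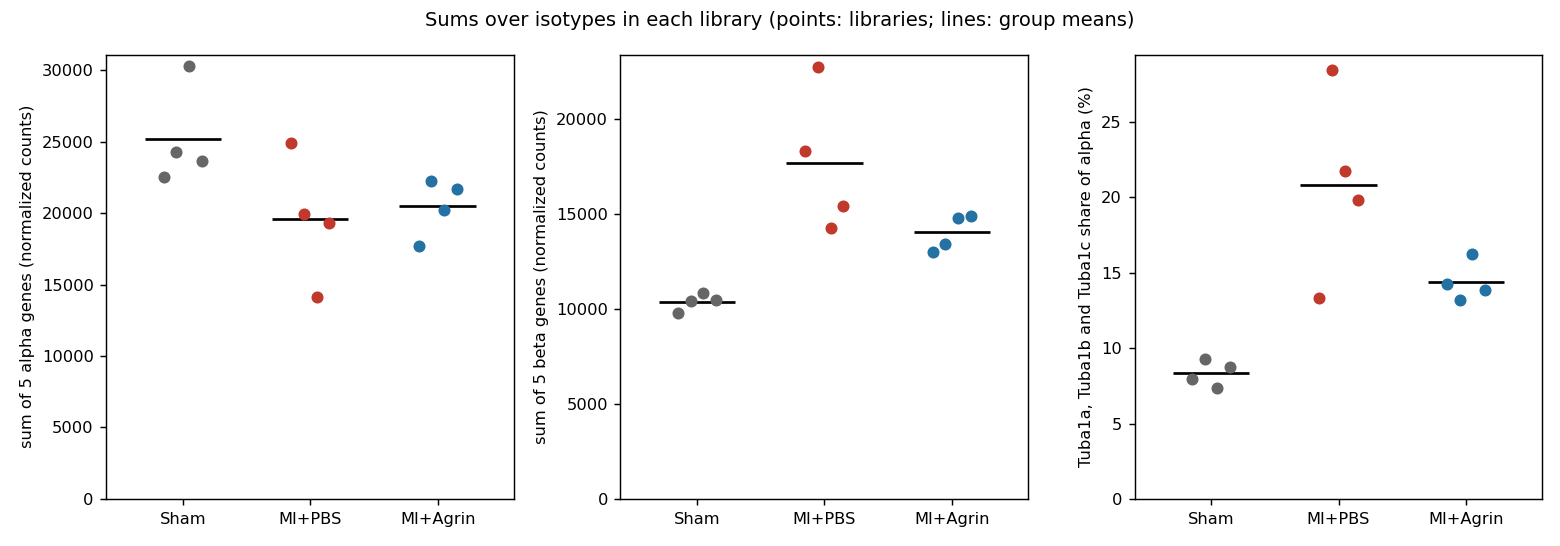
Summed α counts, summed β counts and the share of Tuba1a, Tuba1b and Tuba1c in α counts, per library, with lines at the group means. The β sums of infarcted hearts (12992 to 22720) lie above those of sham (9798 to 10833), and the share runs from 7.37% to 9.31% in sham and from 13.2% upward in the infarcted hearts.

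Agrin treatment was compared with saline in infarcted hearts. None of the 10 genes passed in MI+Agrin against MI+PBS with limma or with edgeR, and 1.64% of all genes tested passed. Tubb6 alone of the 10 passed with DESeq2 (adjusted p = 0.0442). DESeq2 called 751 of 14906 genes in this comparison, more than the 245 that limma called. At an unadjusted p under 0.05, 5 of the 10 had lower values in MI+Agrin (Tuba1a, Tubb2a, Tubb2b, Tubb5 and Tubb6), beside 18.8% of all genes in either direction. This comparison shares the MI+PBS libraries with that of MI+PBS against sham, so high values in MI+PBS enter both.

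Tubb6 had a log2 fold change of -0.45 ± 0.14 in MI+Agrin against MI+PBS (adjusted p = 0.139, limma), a fold of 0.73, and of -0.28 without MI+PBS replicate 2. Tuba1a was at -0.47 ± 0.16 (adjusted p = 0.157, limma), and at -0.27 without MI+PBS replicate 2. Its MI+Agrin libraries, at most 1713, all lay below the MI+PBS libraries, at least 1749.8. Tubb2b likewise did not overlap, with at most 249 against at least 250.1 normalized counts, and a log2 fold change of -0.39 ± 0.18 (adjusted p = 0.265, limma). These were the 2 of 10 genes whose groups did not overlap, beside 9.04% of all genes in either direction and 4.92% in the lower direction.

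The other members had smaller differences. Tubb2a was at -0.36 ± 0.12 (adjusted p = 0.158, limma) and Tubb5 at -0.36 ± 0.14 (adjusted p = 0.2, limma) on the log2 scale. Tuba1b, Tuba1c and Tubb4b had log2 fold changes of -0.29, -0.35 and -0.13, and Tuba4a and Tuba8 of 0.24 and 0.11, with adjusted p-values from 0.329 to 0.732 in limma. The 95% interval of Tuba4a ran from -0.15 to 0.63 and that of Tubb4b from -0.39 to 0.13. None of the 10 shares separated the groups. The smallest p was 0.0571 in the exact permutation test, for Tuba1a (7.39% in MI+Agrin against 11.3% in MI+PBS) and Tubb4b (28.8% against 25.6%), and Tuba4a was at 63.1% against 57.0% (p = 0.0857).

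The sums of dividing-cell markers were 2544 to 4041 in MI+Agrin and 4025 to 6999 in MI+PBS and overlapped. None of these 8 markers passed in limma, edgeR or DESeq2, and 4 had an unadjusted p under 0.05 in limma. The median log2 fold change was -0.53 for dividing-cell markers, -0.34 for myofibroblast markers, 0.23 for cardiomyocyte markers and -0.36 for the 10 tubulin genes, beside 0.00 for all genes. It was -0.19 for macrophage, -0.07 for neutrophil, -0.05 for smooth muscle and pericyte, 0.01 for endothelial and 0.14 for resting fibroblast markers. For neuron, Schwann cell, platelet, skeletal muscle and lymphocyte markers it was 0.25, 0.09, 0.22, -0.30 and 0.13. The markers that passed in limma were Kdr (endothelial) and Kcnj8 (smooth muscle and pericyte), both higher in MI+Agrin, where 1.64% of all genes passed. The part of these cell types in the tubulin values was not tested.

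Against sham, 5 of the 10 genes were higher in MI+Agrin by the test (Tuba1c, Tubb2a, Tubb2b, Tubb5 and Tubb6), where 28.6% of all genes passed, 15.4% in that direction. Tubb2b rose by 1.05 ± 0.18 log2 (adjusted p = 0.00143), Tubb6 by 0.76 ± 0.14 (adjusted p = 0.00255), Tuba1c by 0.70 ± 0.19 (adjusted p = 0.0154), Tubb2a by 0.64 ± 0.12 (adjusted p = 0.00289) and Tubb5 by 0.58 ± 0.14 (adjusted p = 0.00861), all in limma. This comparison shares the sham libraries with that of MI+PBS, and the MI+PBS rises of the same genes were 1.44, 1.204, 1.06, 0.9998 and 0.94.

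Tuba1a and Tuba1b were at 0.45 ± 0.16 (adjusted p = 0.0502, limma) and 0.46 ± 0.18 (adjusted p = 0.0689, limma) log2, and Tuba1a passed in 8 of 19 alternative settings. Tuba4a was at -0.45 ± 0.18 (adjusted p = 0.0801, limma), Tuba8 at -0.24 ± 0.15 (adjusted p = 0.26, limma) and Tubb4b at 0.05 ± 0.12 (adjusted p = 0.81, limma). The libraries of MI+Agrin and sham did not overlap for 9 of the 10 genes, 7 higher and Tuba4a and Tuba8 lower, beside 32.4% of all genes in either direction, 16.8% higher and 15.6% lower. Fitted on the sham and MI+Agrin libraries alone, without the spread of the MI+PBS libraries, 9 of the 10 passed. The share of all genes that passed in that fit is not given here, so these 9 have no background beside them.

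The same 7 shares as in MI+PBS separated MI+Agrin from sham (exact permutation test, p = 0.0286 for each). The Tuba4a share fell by 6.93 points. The Tubb4b share fell by 9.02 points, and Tuba1a rose by 2.97, Tuba1b by 1.82, Tuba1c by 1.26, Tubb6 by 2.80 and Tubb2b by 0.56 points.

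Counts over the lists of related genes stand beside 22.6% of all tested genes that rose and 21.8% that fell in MI+PBS. Of 8 tubulin genes outside the 10 that were tested (Tubb1, Tubb3, Tubb4a, Tuba3b and the γ, δ and ε genes), Tubb3, the β isotype used as a marker of neurons, rose in MI+PBS and the other 7 did not pass. It held a mean of 49.4 normalized counts in sham (27.5 to 67.1), 211 in MI+PBS (165 to 334) and 153 in MI+Agrin (140.2 to 168), a log2 fold change of 2.08 ± 0.27 in MI+PBS (adjusted p = 0.000103, limma). Sham did not overlap with the infarcted groups. Tuba3b, an α gene, held 5.32 to 14.8 normalized counts in sham, 2.92 to 6.90 in MI+PBS and 0.94 to 4.94 in MI+Agrin, without overlap between MI+Agrin and sham. It fell by 1.41 ± 0.45 log2 in MI+Agrin against sham (adjusted p = 0.033, limma), and in MI+PBS it was at -0.88 with a 95% interval from -1.85 to 0.09 (adjusted p = 0.131, limma). Its call in MI+Agrin was lost with the replicate block and without any one of Sham replicates 2, 4 and 5 and MI+Agrin replicates 1 and 4. The means of Tuba3b were 9.51 in sham, 4.69 in MI+PBS and 3.15 in MI+Agrin. It therefore passed the filter at an average of 5 only through sham, the group where it is high. Its fall and its lack of overlap are not independent of that filter. With the filter at a mean of 50, 0 genes of this list fell in MI+Agrin against sham. Tubg1, which encodes γ-tubulin, had a log2 fold change of 0.01 ± 0.06 in MI+PBS (adjusted p = 0.935, limma).

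New tubulin is folded by the chaperonin CCT and by cofactors that assemble the dimer. Of 14 genes tested, 8 rose in MI+PBS (Cct2, Cct3, Cct5, Cct6a, Cct7, Cct8, Tbca and Tbcb), Arl2 fell, and the median log2 fold change was 0.18. The number that rose was 5 without Sham replicate 5 or without MI+PBS replicate 2. Cct3 rose by 0.34 ± 0.06 log2 (adjusted p = 0.000717) and Tbca, which binds β-tubulin, by 0.37 ± 0.07 (adjusted p = 0.0013), both in limma. These changes were small beside those of the isotype genes. Of 6 prefoldin subunits, which hand unfolded tubulin to CCT, none passed in MI+PBS against sham with all 12 libraries in limma, edgeR or DESeq2. In limma 1 had an unadjusted p under 0.05: Pfdn5 (unadjusted p = 0.0299), with a log2 fold change of -0.19 ± 0.08. Pfdn5 passed with the 8 MI+PBS and sham libraries alone (adjusted p = 0.0244, limma), and 1 prefoldin gene fell without MI+PBS replicate 1. In MI+Agrin against sham 2 of the 6 fell, where 1971 of 14906 tested genes fell. They were Pfdn5 (-0.24 log2, adjusted p = 0.0386, limma) and H2-Ke2, the older symbol of Pfdn6 (-0.33 log2, adjusted p = 0.0391, limma).

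Both autoregulation genes were measured. Scaper fell by 0.39 ± 0.06 log2 in MI+PBS (adjusted p = 0.000268) and by 0.37 ± 0.06 in MI+Agrin against sham (adjusted p = 0.00117), and Ttc5 was at 0.02 ± 0.07 in MI+PBS (adjusted p = 0.884), all in limma. Scaper held 777 to 855 normalized counts in sham, 576 to 655 in MI+PBS and 597 to 642 in MI+Agrin, so sham lay above both other groups.

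A further list held 18 tested genes of tubulin-modifying enzymes and their partner proteins, most acting on the tails. Of these, 4 rose in MI+PBS (Vash2, Hdac6, Ttll3 and Ttll12) and 2 fell (Agbl5 and Ttll1), with a median log2 fold change of 0.09. Neither count exceeds the share of all tested genes, 22.6% rising and 21.8% falling, and only 2 rose without Sham replicate 3 or without Sham replicate 5. Ttll1, a subunit of a polyglutamylase, fell by 0.68 ± 0.12 log2 (adjusted p = 0.000755) and Agbl5, which removes branch-point glutamates, by 0.50 ± 0.10 (adjusted p = 0.00172), while Hdac6, which deacetylates tubulin, rose by 0.24 ± 0.06 (adjusted p = 0.00363), all in limma. Vash1, a carboxypeptidase that removes the terminal tyrosine, was at 0.28 ± 0.15 in MI+PBS (adjusted p = 0.149) and at -0.48 ± 0.15 in MI+Agrin against MI+PBS (adjusted p = 0.127), neither passing in limma. Ttl, the tyrosine ligase, was among the 4 genes of the list that fell in MI+Agrin against sham, and did not pass in MI+PBS.

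Of 18 stabilisers and plus-end proteins, 4 rose in MI+PBS (Map1b, Map6, Mapre1 and Dclk1) and 7 fell (Map7, Map7d1, Mapt, Mapre3, Clasp1, Clasp2 and Mtus1). Dclk1, a microtubule-binding kinase, rose by 1.12 ± 0.14 log2 (adjusted p = 7.22e-05) and Map1b by 0.67 ± 0.11 (adjusted p = 0.000462), whereas Clasp1, which stabilises growing plus ends, fell by 0.54 ± 0.08 (adjusted p = 0.000325), all in limma. In MI+Agrin against MI+PBS, Map1b was at -0.45 ± 0.11 (adjusted p = 0.0612) and Dclk1 at -0.50 ± 0.14 (adjusted p = 0.0849) in limma, and both passed with DESeq2.

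Of 14 destabilisers, 5 rose in MI+PBS (Stmn4, Fignl1, Kif2c, Kif18a and Kif24) and 3 fell (Katnal1, Spast and Fign); without MI+PBS replicate 2 the number that rose was 3. Kif2c, a kinesin that depolymerises microtubules in mitosis, rose by 1.92 ± 0.21 log2 (adjusted p = 3.74e-05, limma). Fign, which encodes the severing enzyme fidgetin, fell by 1.15 ± 0.11 (adjusted p = 2.73e-05, limma). It held 409.99 to 449 normalized counts in sham, 156 to 231 in MI+PBS and 272 to 331 in MI+Agrin, so that the 3 groups did not overlap. Fign was the only gene of the 9 pathway lists to pass with limma and all 12 libraries in MI+Agrin against MI+PBS, where it rose by 0.63 ± 0.11 log2 (adjusted p = 0.0135, limma); it did not pass with the 8 libraries of those groups alone (adjusted p = 0.0825, limma).

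Of 11 nucleation genes, none rose in MI+PBS and 4 fell, among them Mzt1, a small subunit of the γ-tubulin ring complex, by 0.59 ± 0.12 log2 (adjusted p = 0.00145, limma) and Akap9, a Golgi and centrosome scaffold, by 0.34 ± 0.08 (adjusted p = 0.00288, limma). Without Sham replicate 5 the number that fell was 2. Of 20 motor genes, 3 rose and 4 fell, neither above the share of all tested genes, 22.6% rising and 21.8% falling. Dynll1 rose by 0.73 ± 0.09 log2 (adjusted p = 6.34e-05) and its paralogue Dynll2, also a dynein light chain, fell by 0.56 ± 0.07 (adjusted p = 7.73e-05), both in limma.

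The genes whose log2 values ran closest to Tubb2b over the 12 libraries, each centred on its own mean, were Wdr62, Abcc3, Dok1, Cd68 and Peg12, at root mean square differences of 0.17 to 0.21 where Tubb2b itself varied by 0.65. Cd68, a macrophage gene, held a mean of 549 normalized counts in sham, 1655 in MI+PBS and 1247 in MI+Agrin. Those closest to Tuba4a were Mtfp1, Asb10, Herc3, Coprs and Nt5c1a, at 0.15 to 0.17 where Tuba4a varied by 0.38. Asb10 held a mean of 3253 in sham, 1902 in MI+PBS and 2258 in MI+Agrin. This likeness describes these libraries.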

How the data were processed

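Poly-A RNA of hearts was sequenced as 61 bp single reads, 1 library per animal. The submitters' processing notes name mm10 and the tools cutadapt, STAR 2.4.2a, HTSeq and DESeq2 1.10.1. What each tool did, the gene annotation, the strand setting and the treatment of reads matching several genes were not given in the sources used here. Per the file headers, the deposited values are normalized read counts (a signal scaled per library by the authors). At least 99.994% of the values above 0 in each library were whole multiples of 1 step (tolerance 0.0055 normalized counts). Whole reads could therefore be recovered for all 12 libraries. These totals, 20238512 to 22742027, are the depth behind each value, and the fewest recovered reads of a member in a library were 76, for Tubb2b.

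Because the values were normalized, the test planned for normalized values was used. Values plus 1 were taken to log2, so fold changes understate those of low genes. The 14906 genes averaging 5 or more entered 1 linear model with a mean for each of 3 groups (limma 3.58.1 under R 4.3.3, with trend), with Benjamini-Hochberg adjustment over all genes. Adjusted p-values of genes come from that model where no other tool is named. Alternatives used edgeR 4.0.16 and, on the same recovered reads, DESeq2 1.42.0. The limma fit was tested on simulated data. No pair of libraries in a group agreed within sampling noise. Per the design text each group had 4 animals, so the spread is between animals; a further group of infarcted wild-type animals that it lists was not analysed here.

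Exon lengths, coding sequences and 61-base words came from GENCODE M21 (mm10); coding bases of Tuba1a and Tuba1b are not reported here. All 10 members are named in each comparison; of each pathway list, up to 3 genes with the smallest p in MI+PBS against sham and up to 2 in MI+Agrin against MI+PBS. Most-alike genes were taken for the members with the largest rise and fall. Ttl was named after its values were seen. The members and lists were chosen with earlier results of these data known.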

Additional observations from a re-analysis of the deposited data

Results flagged for a closer look

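Tuba1a in MI+PBS replicate 2 lay far from the rest of its group, with 3145.64 normalized counts where the other 3 libraries ranged from 1749.78 to 1897.3. The gap was 0.894 of the group's range, above Dixon's 95% critical value for 4 samples. It was the only one of 60 sets of values examined, and chance alone puts about 1 set in 20 past this limit. The same library had the lowest sum of cardiomyocyte markers of the 12 and the highest sum of dividing-cell markers in its group.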

How the results depend on the processing

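The 8 calls of isotype genes in MI+PBS against sham held in all 19 alternatives, and Tuba8 joined them without MI+PBS replicate 1. In MI+Agrin against MI+PBS the number of genes past the threshold, 245, was 93 with those 8 libraries alone, 751 with DESeq2 and 137 with both MI+PBS replicate 2 and MI+Agrin replicate 1 left out. Leaving out 1 library gave 137 (without MI+Agrin replicate 3) to 327, and 145 without MI+PBS replicate 2; 1 isotype gene, Tubb6, passed with DESeq2. In MI+Agrin against sham, 9 isotype genes instead of 5 passed with the 8 libraries of those groups alone. The share of all genes passing in that fit is not given here. Isotype shares without overlap between MI+Agrin and MI+PBS, 0 as reported, were 1 per kilobase of merged exons, 2 as shares of all 10 genes and 1 per kilobase of unshared words, a setting chosen after seeing the data. Leaving out 1 library gave 0 to 5 such shares, 5 of them without MI+PBS replicate 1; with 7 libraries the permutation test cannot reach 0.05.

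Replicate numbers did not pair the samples: deviations of same-numbered libraries correlated at -0.285 to 0.121. With the replicate number as a block, 5727, 75 and 3660 genes passed in MI+PBS against sham, MI+Agrin against MI+PBS and MI+Agrin against sham, beside 6616, 245 and 4261 without it, and Fign no longer passed against MI+PBS (adjusted p = 0.0628, limma).

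Some values near 0 changed sign when libraries were left out. In MI+PBS against sham, Ttc5 ranged from -0.0331 to 0.061 log2 and the Tuba8 share from -0.0852 to 1.79 percentage points. In MI+Agrin against MI+PBS, the log2 range was -0.0697 to 0.0514 for Ttc5, -0.0091 to 0.0624 for Scaper and -0.0265 to 0.2806 for Tuba8, and the share moved by -1.60 to 1.09 points for Tuba8 and by -0.813 to 0.125 for Tubb2a. In MI+Agrin against sham, Tubb4b ranged from -0.0051 to 0.142 log2. The share of Tuba8 in MI+PBS against sham was -1.80 points per kilobase of merged exons, -3.50 as a share of all 10 genes and -2.34 per kilobase of unshared words, and for MI+Agrin against sham these were -0.283, -1.92 and -1.01. As a share of all 10 genes, Tubb4b was at 1.01, 0.672 and -0.342 points in MI+PBS against sham, MI+Agrin against sham and MI+Agrin against MI+PBS. With the share taken of another sum, the first reversed a call (exact permutation test, p = 0.0286). The second changed the sign of a call, and that call was lost (exact permutation test, p = 0.1714). The cause of the other changes was not tested.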
